A study of Homo sapiens with 6 samples.

Results

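The genes described here serve protein folding, quality control and export in the endoplasmic reticulum (ER). They are 44 genes listed by symbol for these known roles. They were sorted into 5 role classes: stress sensors, chaperones, disulfide and prolyl folding enzymes, degradation factors, and translocation and export factors. The list and its classes were drawn up with earlier results of these data known. Counts over the list therefore describe these genes and test nothing about their pathways. Of the 44, 42 were measured on an Affymetrix probe set annotated to that gene alone, out of 18404 genes measured in this way. Where a gene had several such probe sets, the brightest one by its mean on all 6 arrays stands for it. PDIA3 and TXNDC5 were represented by probe sets shared with other genes and are given apart.

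The samples were MEC-1 cells, an established human line of leukemic B cells that came from chronic lymphocytic leukemia. In 3 samples the cells carried a lentiviral short hairpin RNA (shRNA) against UGT2B17, an enzyme that couples glucuronic acid to steroids and drugs, and in 3 samples a scrambled shRNA. Both groups thus went through lentiviral delivery, in the same medium without phenol red. The replicates are called independent, but the labels give neither the number of hairpin constructs nor separate cultures. Hence the p-values speak only to how far these arrays scatter, which may be technical scatter, and lower UGT2B17 cannot be told apart from other effects of the hairpin. In bulk RNA of this kind, a change in the number of cells of one state and a change in RNA per cell cannot be told apart.

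Proteins bound for the membrane or the cell exterior enter the ER through the Sec61 channel, fold there with chaperones and disulfide isomerases, and leave in COPII vesicles. Proteins that do not fold are returned to the cytosol and degraded, a process called ER-associated degradation. When unfolded protein builds up, the sensors ERN1 (IRE1), EIF2AK3 (PERK) and ATF6 start the unfolded protein response: IRE1 activates the transcription factor XBP1, PERK slows translation and favours ATF4, and ATF6 is cleaved into a transcription factor. B cells use this machinery heavily when they become antibody-secreting plasma cells.

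ATF6 and XBP1 act through short promoter elements, and the promoters of the listed genes were searched for them. The sequences came from RefSeq (build GRCh38.p14) and ran from 250 bases before to 50 bases after each gene's start, with exact matches sought on either strand. The ER stress response element, ERSE, was searched as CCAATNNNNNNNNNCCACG. It occurred in 8 of 39 listed genes with a window, or 20.5%, against 0.0916% of all 27305 genes with a window. Its shorter form ERSE-II, ATTGGNCCACG, which joins the same end blocks with one of them turned round, occurred in 3 of 39, or 7.69%, against 0.0696% of all genes. The XBP1 site UPRE, TGACGTGG, occurred in 5 of 39 listed genes, or 12.8%, against 0.927% of all genes. The cyclic AMP response element CRE, TGACGTCA, occurred in CREB3L2 among the 39, or 2.56%, against 2.25% of all genes. A UPRE and an ERSE-II overlapped in HYOU1. A match is a description of the sequence and not evidence that a factor bound there in these cells.

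The following stretches carry the element in genes that passed the test below and in genes that did not. HSPA5 and SERP1 rose in the knockdown, while CRELD2, HERPUD1, SDF2L1 and CALR did not pass. Whether the change differed between these genes was not tested. CRELD2 and HERPUD1 also had all knockdown arrays above all scrambled arrays. Each stretch is written 5′ to 3′ along the gene's own strand, upstream of its start, with the matched element in capitals. HSPA5 lies at chr9:125241383-125241417 on the minus strand, SERP1 at chr3:150546702-150546736 on the minus strand, and CRELD2 at chr22:49918546-49918580 on the plus strand. CALR lies at chr19:12938376-12938410, HERPUD1 at chr16:56932017-56932043 and SDF2L1 at chr22:21642106-21642132, all on the plus strand. The first 4 hold an ERSE and the last 2 an ERSE-II. In SERP1, CRELD2, CALR and SDF2L1 the element reads on the opposite strand.
HSPA5: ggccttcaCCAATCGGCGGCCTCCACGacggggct
SERP1: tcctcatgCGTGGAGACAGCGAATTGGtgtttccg
CRELD2: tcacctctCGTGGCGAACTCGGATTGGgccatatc
CALR: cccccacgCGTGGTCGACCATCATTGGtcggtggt
HERPUD1: ggacgccgATTGGGCCACGttgggaga
SDF2L1: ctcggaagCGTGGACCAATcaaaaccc

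All levels below are on the log2 scale as deposited, and all fold changes are UGT2B17 knockdown minus scrambled shRNA. The arrays correlated with each other at Pearson's r of 0.991 to 0.996 over 32321 probe sets. UGT2B17 itself read 3.19, 3.27 and 3.17 in the knockdown arrays, against 3.95, 3.69 and 3.91 in the scrambled arrays, on a dim probe set annotated to it alone. It was lower in the knockdown by limma, a linear model with a shared estimate of variance (log2 fold change −0.64 ± 0.08 SE, adjusted p = 0.00654, exact two-sided permutation p = 0.1, the smallest that 3 against 3 arrays allow). A brighter probe set shared with UGT2B15 averaged 6.72 ± 0.15 in knockdown arrays and 8.06 ± 0.05 in scrambled arrays (SD, n = 3 each), a log2 fold change of −1.34 (adjusted p = 0.0137 over all deposited probe sets). Of the other shared probe sets, which name several UGT2B genes, one had −1.50 (adjusted p = 0.0265) and a dim one −0.21 (adjusted p = 0.226). B cell markers were bright, at percentiles 85.0 to 98.8 of all probe sets. The median marker of T and NK cells stood at percentile 38.9, with a range of 27.2 to 87.1, where GZMK was brightest. That of monocytes and granulocytes stood at 34.9 (5.42 to 55.5) and that of erythroid cells and platelets at 28.3 (15.7 to 41.2). That of epithelial cells and fibroblasts stood at 47.5 (13.7 to 75.5), where CDH1 was brightest. The mean level of the 10 measured B cell markers was 10.66 to 10.70 in knockdown arrays and 10.49 to 10.63 in scrambled arrays. That of the 12 T and NK cell markers was 6.24 to 6.33 in knockdown arrays and 6.02 to 6.24 in scrambled arrays. In that list GZMK rose (log2 fold change 2.01), KLRD1 fell (−0.64) and 10 did not pass. Of the 9 epithelial and fibroblast markers KRT18 rose and 8 did not pass, with mean levels of 6.39 to 6.41 in knockdown arrays and 6.31 to 6.46 in scrambled arrays. Mean levels of the 9 monocyte and granulocyte markers were 5.25 to 5.28 in knockdown arrays and 5.26 to 5.41 in scrambled arrays, and of the 6 erythroid and platelet markers 4.96 to 5.01 in knockdown arrays and 4.91 to 5.02 in scrambled arrays. None of the B cell, monocyte or erythroid markers passed in limma. At an unadjusted p under 0.05 there were 4, 2 and 0 of them, where 3341 of all 18404 genes had such a p. Whether the marker differences had a part in the results below was not tested.

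Most of the listed ER genes had a higher mean in the knockdown, and a minority of them passed the test. Of 42 measured genes, 8 rose and 0 fell at an adjusted p under 0.05 (limma, two-sided, Benjamini-Hochberg over all 18404 genes), where 1.92% of all genes were called higher and 1.69% lower. The 8, or 19.0% of the 42, were SEC24D, FKBP14, WFS1, SERP1, CREB3L2, SYVN1, EDEM1 and HSPA5. Before adjustment, 25 higher genes and 0 lower ones had a limma p under 0.05. Of all 18404 genes, 1602 higher and 1739 lower ones did so. The knockdown arrays all lay above the scrambled arrays in 26 of the 42, or 61.9%, where 11.8% of all genes did so, and all below them in CALR, where 13.1% of all genes did so. The median log2 fold change was 0.19 over the 42 and −0.002 over all genes, and 37 of the 42 were above 0. Genes of like roles outside the list, set out below, did not all share this. Other ER folding, degradation and translocation genes had medians of −0.08, −0.03 and −0.004. N-glycosylation genes had 0.03 and COPII and COPI genes 0.17.

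The number of calls rested on the arrays used. It was 0 without knockdown replicate 1 or 2, with 22 and 19 of the genes at an unadjusted p under 0.05, and without knockdown replicate 3 or scrambled replicate 2 the count was 1, SEC24D each time. Without scrambled replicate 1 or 3 it was 9. When limma was fitted and its p-values adjusted over all 32321 deposited probe sets, 0 of the 42 passed, with 25 at an unadjusted p under 0.05. Over all alternatives tried, the log2 fold changes of the 8 genes stayed between 0.29 and 0.84.

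**Figure D1:**
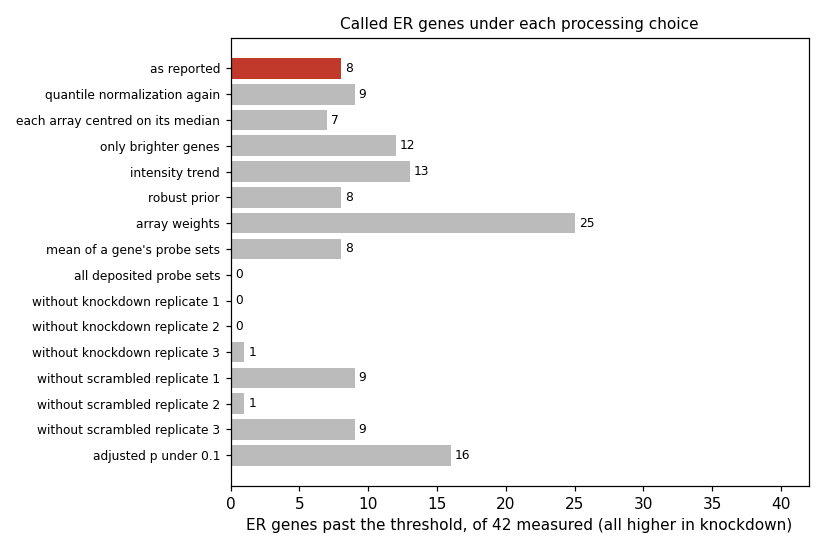
Number of the 42 measured ER genes past the threshold (x axis, all of them higher in UGT2B17 knockdown) as reported and under other processing choices (y axis). A model with the replicate number as a block, in which 2 passed, is not drawn. The count runs from 0 without knockdown replicate 1 or 2 or over all deposited probe sets to 25 with array weights, against 8 as reported.

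**Figure D2:**
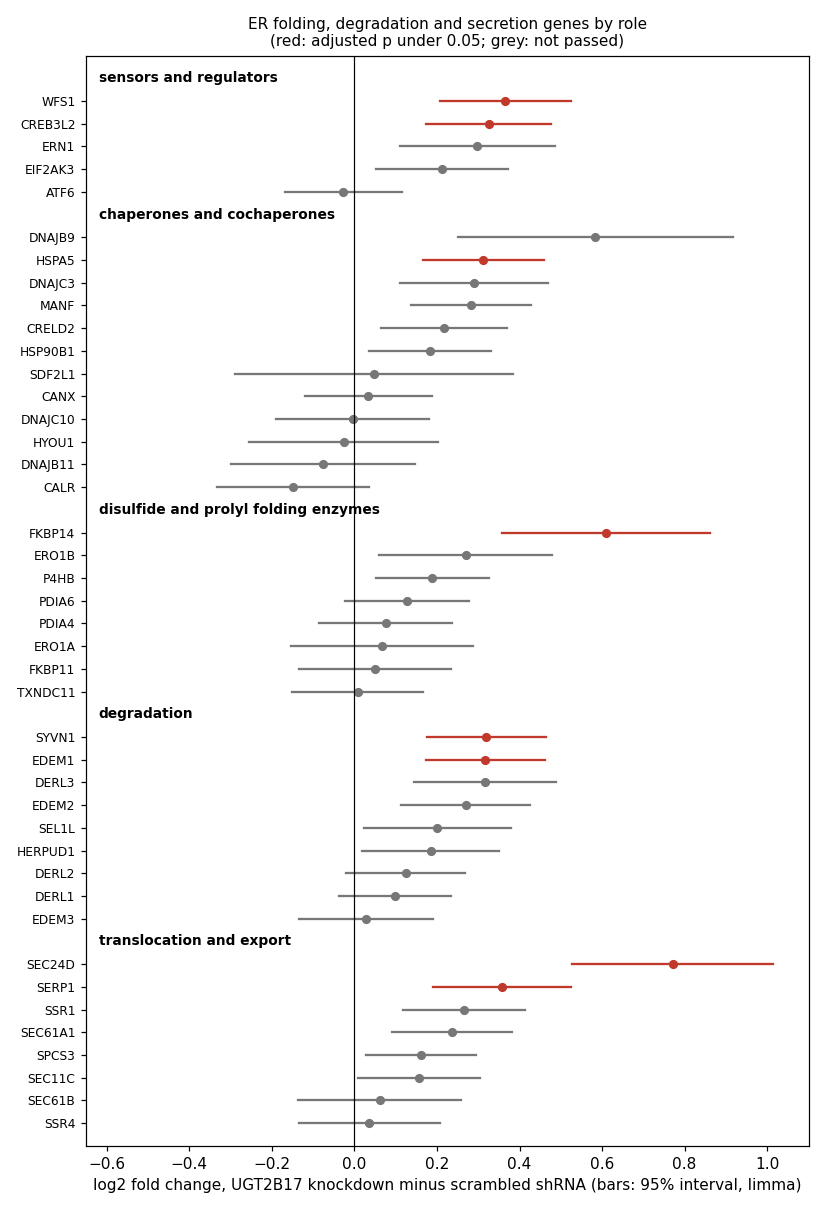
Log2 fold change (UGT2B17 knockdown minus scrambled shRNA) of the 42 measured ER genes, by role class, with 95% intervals from limma (n = 3 arrays per group). Red marks the 8 genes with an adjusted p under 0.05; SEC24D is highest at 0.77 and CALR lowest at −0.15.

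These genes were bright, from percentile 60.6 to 99.2 of all probe sets by mean level, with a median of 88.5. Among the 8750 genes at least as bright as the dimmest of them, the median log2 fold change was −0.03 and 43.2% were above 0. Of these genes 2.86% were called higher and 15.3% had all knockdown arrays above the scrambled arrays. Averaged over the 42 genes, each centred on its own mean, the knockdown arrays read 0.09, 0.12 and 0.08, against −0.07, −0.10 and −0.12 in the scrambled arrays. The groups did not overlap on this average. Such an average can hide departures of a single array that go opposite ways in different genes, as those of scrambled replicate 3 did below. The scrambled arrays were the more variable: the SD was larger among them than among the knockdown arrays for 33 of the 42 genes, or 78.6%, against 62.1% of all genes.

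Of the 5 sensors and regulators, 2 rose and 3 did not pass, with a median log2 fold change of 0.30. WFS1, wolframin, an ER membrane protein linked to calcium balance and to restraint of ATF6, read 7.46, 7.41 and 7.30 in the knockdown arrays, against 6.98, 7.09 and 7.01 in the scrambled arrays. It rose by 0.36 ± 0.07 (SE; 1.29-fold; limma adjusted p = 0.0278), with no overlap between groups. CREB3L2, an ER-anchored transcription factor released by proteolysis much as ATF6 is, read 10.11, 10.07 and 10.18 in the knockdown arrays and 9.84, 9.82 and 9.72 in the scrambled arrays. Its rise was 0.32 ± 0.07 (1.25-fold; adjusted p = 0.0352), again without overlap. The call of WFS1 was lost without any one of the 3 knockdown arrays and without scrambled replicate 1 or 2.

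The sensors ERN1, EIF2AK3 and ATF6 did not pass. ERN1 had a log2 fold change of 0.30 (adjusted p = 0.0931) and EIF2AK3 of 0.21 (adjusted p = 0.153), each with all knockdown arrays above all scrambled arrays. ATF6 read 9.83, 9.90 and 9.87 in the knockdown arrays, against 9.91, 9.85 and 9.93 in the scrambled arrays, and the groups overlapped. Its log2 fold change was −0.03, with a 95% interval of −0.17 to 0.11.

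Among 12 chaperones and cochaperones, 1 rose and 11 did not pass, with a median log2 fold change of 0.12. HSPA5, or BiP, the Hsp70 chaperone of the ER that also holds the sensors in check, read 12.40, 12.41 and 12.37 in the knockdown arrays, against 12.16, 12.05 and 12.03 in the scrambled arrays. It was among the brightest genes on the array, at percentile 98.6, and rose by 0.31 ± 0.06 (1.24-fold; adjusted p = 0.0358). With each array centred on its median the call was lost. MANF, a secreted partner of BiP, read 10.34, 10.25 and 10.27 in the knockdown arrays and 10.06, 9.96 and 10.00 in the scrambled arrays. The groups did not overlap, and its log2 fold change of 0.28 ± 0.06 missed the threshold narrowly (adjusted p = 0.0507).

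The J-domain cochaperones, which bring substrates to BiP and trigger its ATPase, ran from −0.08 to 0.58, and none passed. DNAJB9 had the class's largest log2 fold change, 0.58 ± 0.15, but did not pass (adjusted p = 0.0685). It is set out here because of its size: it read 8.84, 8.89 and 8.77 in the knockdown arrays, against 8.53, 8.35 and 7.87 in the scrambled arrays, which were spread widely. DNAJC3, which also inhibits PERK, had 0.29 (adjusted p = 0.0888). DNAJC10, a disulfide reductase that aids degradation, had −0.0039 and DNAJB11 −0.08, and neither separated the groups.

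The other chaperones did not pass. HSP90B1, the Hsp90 of the ER, had a log2 fold change of 0.18 and CRELD2, a secreted stress-induced protein, one of 0.22, each with all knockdown arrays above all scrambled arrays. The lectin chaperones CALR and CANX hold newly made glycoproteins. CALR read 10.74, 10.73 and 10.71 in the knockdown arrays, against 10.78, 10.80 and 11.04 in the scrambled arrays, so it was the only one of the 42 with all knockdown arrays lower. Its log2 fold change of −0.15 ± 0.08 did not pass (adjusted p = 0.389). CANX had 0.03, HYOU1, the nucleotide exchange factor of BiP, −0.03, and SDF2L1, a stabiliser of BiP and DNAJB11 complexes, 0.05, and in these the groups overlapped.

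Scrambled replicate 3 stood apart in several of these genes. It read 11.04 for CALR, 9.28 for HYOU1, 9.43 for DNAJB11 and 8.24 for SDF2L1, above the other 5 arrays each time. It read 7.87 for DNAJB9, 6.99 for FKBP14 and 9.53 for SEC24D, below the other 5 arrays. Without it, HYOU1 had a log2 fold change of 0.09 and DNAJB11 of 0.03, neither of which passed, and DNAJB9 passed, at 0.39 (adjusted p = 0.0331). Of the 42 genes, 22 had their lowest scrambled value on this array and 12 their highest.

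**Figure D3:**
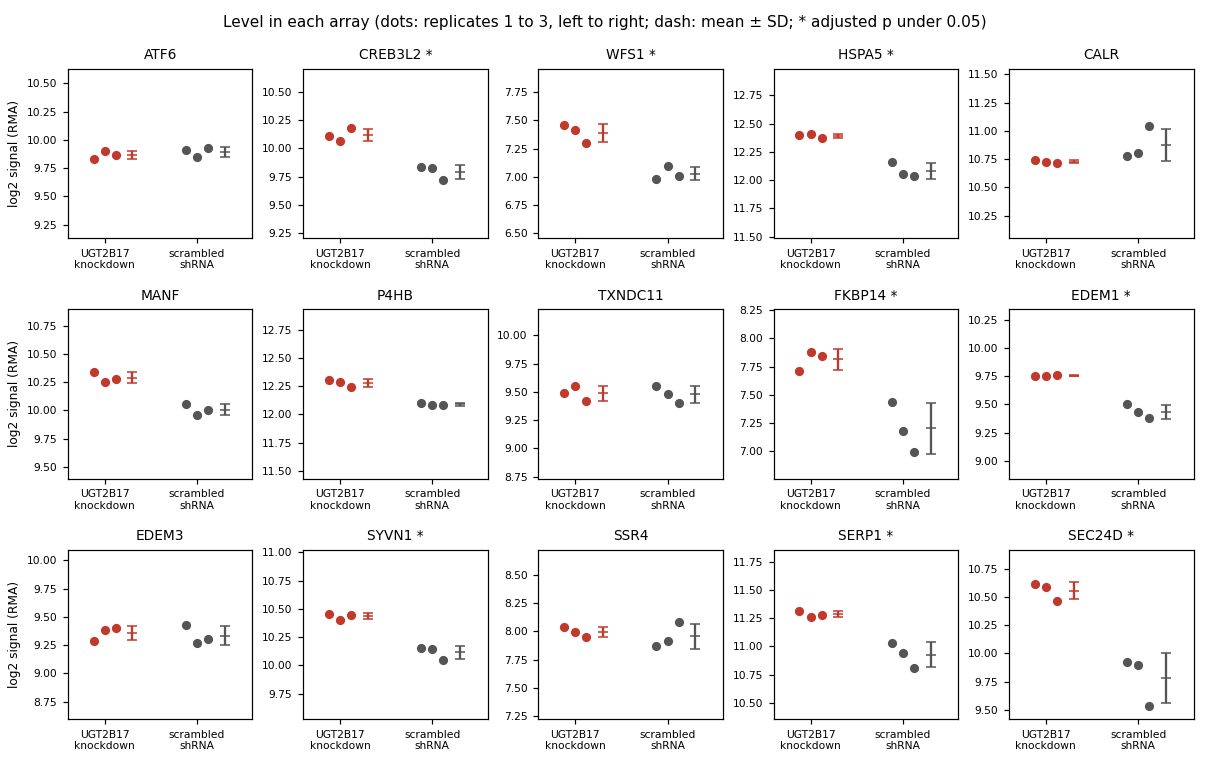
Log2 signal on each array for the 15 ER genes described in full, with 3 UGT2B17 knockdown arrays (red, left) and 3 scrambled shRNA arrays (grey, right) and the mean ± SD beside them; every panel spans the same range of 1.5 log2 units. The 8 starred genes passed the test, and CALR is the gene whose knockdown arrays all lie below the scrambled arrays.

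Of 8 measured disulfide and prolyl folding enzymes, 1 rose and 7 did not pass, with a median log2 fold change of 0.10. FKBP14, a prolyl isomerase of the ER that acts on collagens, read 7.71, 7.88 and 7.85 in the knockdown arrays, against 7.44, 7.18 and 6.99 in the scrambled arrays. It rose by 0.61 ± 0.11 (1.53-fold; adjusted p = 0.0226), and was the dimmest gene of the class, at percentile 64.3. P4HB, the main protein disulfide isomerase, read 12.30, 12.29 and 12.24 in the knockdown arrays and 12.10, 12.08 and 12.08 in the scrambled arrays. Its groups did not overlap, but at 0.19 ± 0.06 it did not pass (adjusted p = 0.134), and its dimmer second probe set gave 0.17.

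The remaining folding enzymes did not pass. ERO1B, an oxidase that recharges disulfide isomerases, had a log2 fold change of 0.27, and its relative ERO1A 0.07. The isomerases PDIA6 and PDIA4 had 0.13 and 0.08, and the prolyl isomerase FKBP11 had 0.05. TXNDC11, a thioredoxin-domain protein, read 9.49, 9.55 and 9.42 in the knockdown arrays, against 9.55, 9.48 and 9.40 in the scrambled arrays, which is full overlap at a log2 fold change of 0.01 ± 0.07. For PDIA3, an isomerase that works with calreticulin and calnexin, both probe sets also named the pseudogene PDIA3P1 and had log2 fold changes of −0.08 and −0.04. The probe set for TXNDC5 also named BLOC1S5 and readthrough transcripts and had 0.08. None of these 3 shared probe sets passed in the fit over all deposited probe sets (adjusted p of 0.733, 0.862 and 0.592).

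Among 9 degradation genes 2 rose and 7 did not pass, and all 9 log2 fold changes were above 0, with a median of 0.20. SYVN1, the ubiquitin ligase HRD1 at the centre of the degradation complex, read 10.46, 10.40 and 10.44 in the knockdown arrays, against 10.15, 10.14 and 10.05 in the scrambled arrays. It rose by 0.32 ± 0.06 (1.25-fold; adjusted p = 0.0307). EDEM1, which trims mannose to mark glycoproteins for degradation, read 9.75, 9.75 and 9.76 in the knockdown arrays and 9.50, 9.43 and 9.37 in the scrambled arrays. The knockdown arrays were nearly identical, and the rise was 0.32 ± 0.06 (1.25-fold; adjusted p = 0.0319).

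The paralogs of EDEM1 did not pass. EDEM2 had a log2 fold change of 0.27 (adjusted p = 0.0718) without overlap between groups. EDEM3 read 9.29, 9.39 and 9.40 in the knockdown arrays, against 9.43, 9.26 and 9.30 in the scrambled arrays, an overlap at 0.03 ± 0.07. The derlins, membrane proteins of the retrotranslocation site, had 0.32 for DERL3 (adjusted p = 0.0584), 0.12 for DERL2 and 0.10 for DERL1, each without overlap and none passing. SEL1L, the partner that stabilises HRD1, had 0.20 and HERPUD1, a stress-induced organiser of the same complex, 0.18, and neither passed.

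Of 8 translocation and export genes 2 rose and 6 did not pass, and all 8 log2 fold changes were above 0, with a median of 0.20. SEC24D, a cargo-binding subunit of the COPII coat, gave the largest change of the 42 genes. It read 10.61, 10.58 and 10.47 in the knockdown arrays, against 9.92, 9.89 and 9.53 in the scrambled arrays, a gap wider than the spread of either group. It rose by 0.77 ± 0.11 (1.71-fold; 95% interval 0.53 to 1.02; adjusted p = 0.00834). SERP1, a small protein that associates with Sec61 and protects membrane proteins during stress, read 11.31, 11.26 and 11.28 in the knockdown arrays and 11.03, 10.94 and 10.81 in the scrambled arrays. Its rise was 0.36 ± 0.07 (1.28-fold; adjusted p = 0.0357).

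The other genes of the channel and its attached complexes did not pass. SEC61A1, the pore subunit, had a log2 fold change of 0.24 (adjusted p = 0.0856), while SEC61B, a small subunit of the same channel, had 0.06. SSR1, a subunit of the translocon-associated complex, had 0.27 (adjusted p = 0.0630). SSR4, another subunit of that complex, read 8.04, 7.99 and 7.95 in the knockdown arrays, against 7.87, 7.92 and 8.08 in the scrambled arrays, an overlap at 0.04 ± 0.07. The signal peptidase subunits SPCS3 and SEC11C, which cut off signal peptides, each had 0.16, with all knockdown arrays above all scrambled arrays.

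Genes with and without a match to ERSE or ERSE-II had nearly the same median. The 11 measured genes with a match had a median log2 fold change of 0.18, from −0.15 for CALR to 0.36 for SERP1, and 2 of them rose. The 27 measured genes with a window and no match had a median of 0.19, from −0.08 to 0.58, and 4 of them rose. Most of the matches were in chaperones, where 7 of 12 genes had one, and none was in a sensor or regulator. No test was made of this comparison. The search does not see inexact elements or elements outside the window. SEC24D, FKBP14, DERL1, DERL3 and PDIA3 had no window. The 4 of these that were measured had a median of 0.46, and 2 of them rose.

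**Figure D4:**
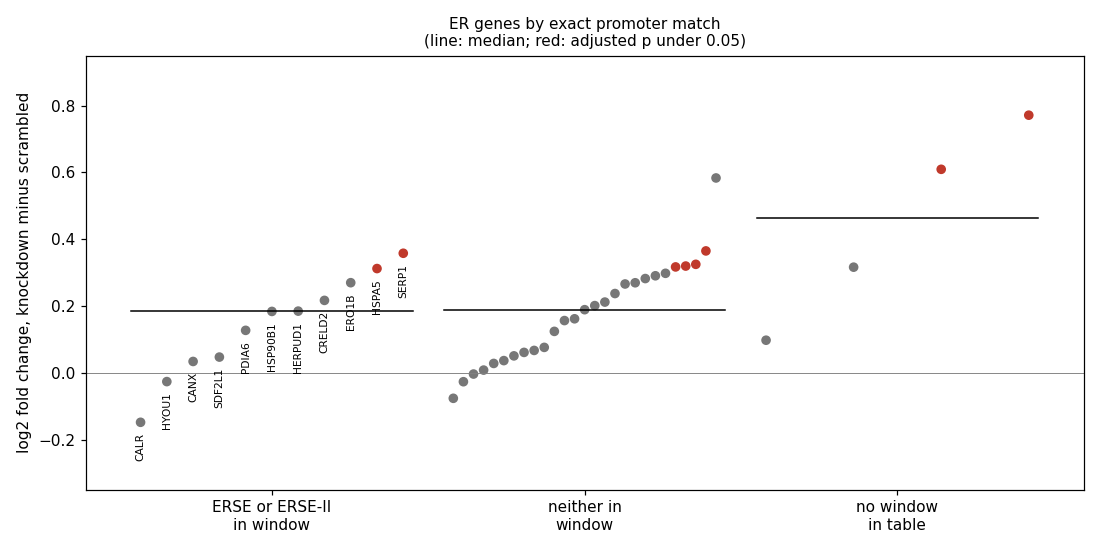
Log2 fold change (UGT2B17 knockdown minus scrambled shRNA) of each measured ER gene, split by an exact ERSE or ERSE-II match in its promoter window; lines are medians and red points passed the test. The medians of the genes with and without a match are 0.18 and 0.19, and HSPA5 and SERP1 lie at the top of the matched genes while CALR lies at the bottom.

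Other genes of the same pathways were counted in lists chosen for their known roles, again with earlier results of these data known. Beside every count below, 1.92% of all genes were called higher and 1.69% lower. Of 16 stress transcription factors and eIF2alpha phosphatase subunits, 3 rose and 13 did not pass. DDIT3 (CHOP), a transcription factor downstream of PERK, rose by 0.55 ± 0.09, PPP1R15A (GADD34), which restores translation, by 0.42 ± 0.07, and ATF4 by 0.31 ± 0.06. XBP1, named here after its value was seen because IRE1 acts through it, had a log2 fold change of 0.15 ± 0.08 and did not pass (adjusted p = 0.332). The array does not measure XBP1 splicing in these values. Of 20 ATF4 and CHOP target genes 6 rose and 14 did not pass. Those with the smallest p were SLC7A11, CTH, ASNS and CHAC1, which import cystine, make cysteine, make asparagine and break down glutathione, at 0.98, 0.85, 0.62 and 0.64. The share called higher was 18.8% of the factors and 30.0% of the targets, against 1.92% of all genes.

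Of 32 other ER folding and lectin cycle genes, 1 rose, 2 fell and 29 did not pass, with a median log2 fold change of −0.08. Here 1 higher gene and 8 lower ones had an unadjusted p under 0.05 in limma, and 21 of the 32 were below 0. PDIA5, a disulfide isomerase, rose by 0.38 ± 0.07, while RCN1, a calcium-binding reticulocalbin, fell by 0.63 ± 0.07, and SDF2, the relative of SDF2L1, fell by 0.30 ± 0.06. Of 25 other ER-associated degradation genes, 2 rose and 23 did not pass, with a median of −0.03. The unadjusted p was under 0.05 in limma for 4 higher genes and 3 lower ones. Those that rose were ERLEC1, a lectin that reads trimmed glycans, at 0.44 ± 0.08, and SELENOS, a selenoprotein of the retrotranslocation complex, at 0.40 ± 0.07. None of 24 other targeting and translocation genes passed in limma, where the unadjusted p was under 0.05 for 5 higher genes and 0 lower ones. SRP54, of the signal recognition particle, had the smallest p, at 0.29 (adjusted p = 0.0648). None of 29 N-glycosylation genes passed either, where 4 higher genes and 0 lower ones had an unadjusted p under 0.05. The smallest p was that of TMEM258, an oligosaccharyltransferase subunit, at 0.31 (adjusted p = 0.0612).

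COPII coats carry cargo out of the ER and COPI coats return proteins to it. Of 38 measured COPII and COPI genes 9 rose, 2 fell and 27 did not pass, with a median log2 fold change of 0.17. The share called in either direction was 28.9%, against 3.61% of all genes. ARCN1, the delta subunit of the COPI coat, rose by 0.68 ± 0.06. KDELR3, a receptor that returns escaped ER proteins, rose by 0.48 ± 0.08. SEC24A, another cargo adaptor like SEC24D, rose by 0.49 ± 0.07.

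The paired COPII subunits SEC23A and SEC23B, alternative partners of SEC24 in the inner coat, went opposite ways. SEC23A read 9.80, 9.86 and 9.78 in the knockdown arrays, against 10.26, 10.19 and 10.32 in the scrambled arrays, and fell by 0.44 ± 0.07 (adjusted p = 0.0104). SEC23B, named after its value was seen, read 10.70, 10.75 and 10.64 in the knockdown arrays and 10.31, 10.34 and 10.31 in the scrambled arrays, and rose by 0.37 ± 0.06 (adjusted p = 0.0166). In neither gene did the groups overlap. Among the 4 SEC24 genes, SEC24D and SEC24A rose, SEC24C had 0.22 and did not pass, and SEC24B had 0.01. Whether probe sets of these paralogs share signal was not tested.

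**Figure D5:**
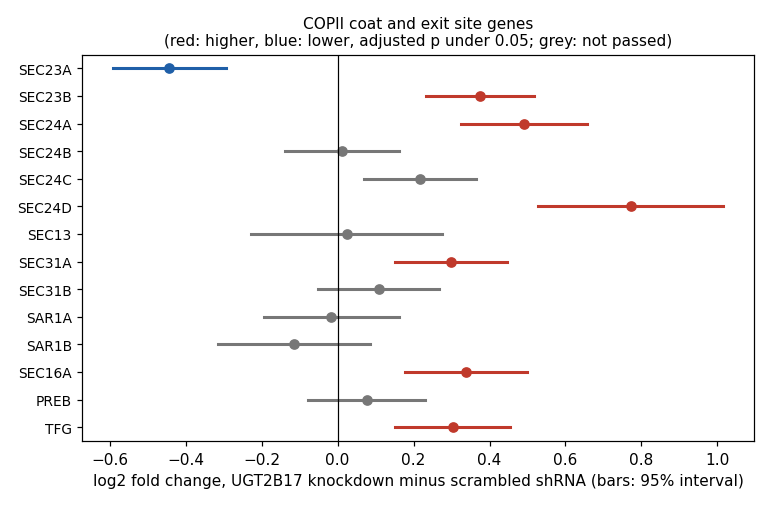
Log2 fold change (UGT2B17 knockdown minus scrambled shRNA) with 95% intervals for COPII coat and exit site genes, n = 3 arrays per group. SEC23A (blue) fell by 0.44, and SEC23B, SEC24A, SEC24D, SEC31A, SEC16A and TFG (red) rose, from 0.30 to 0.77.

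Of 15 heat shock genes of the cytosol and mitochondria 0 passed in limma, where 0 higher genes and 1 lower gene had an unadjusted p under 0.05, and the median log2 fold change was −0.13. The gene with the smallest p was FKBP4, an Hsp90 cochaperone, at −0.46 ± 0.15 (adjusted p = 0.133). FKBP4 read 9.59, 9.62 and 9.60 in the knockdown arrays, against 9.79, 9.95 and 10.45 in the scrambled arrays. In every measured gene of this list but HSPB1, scrambled replicate 3 read above all the other arrays. How far the median rested on that array was not tested. In the plasma cell secretory programme, 1 of 14 genes rose, 3 fell and 10 did not pass. The share called in either direction was 28.6%, against 3.61% of all genes. MZB1, an ER protein that aids antibody assembly, rose by 0.44 ± 0.08, while CD38 fell by 1.14 ± 0.08, TNFRSF17 (BCMA) by 0.66 ± 0.07 and ELL2, an elongation factor for secretory immunoglobulin transcripts, by 0.51 ± 0.06.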

How the data were processed

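RNA from 6 MEC-1 samples was biotin-labelled and read on 1 Affymetrix whole-transcript array each, per the labels. The deposited log2 values were made by the authors with RMA (background correction, quantile normalisation, probe set summary), per the submitters' processing notes; the sources used here name no version of it. RMA compresses fold changes of dim probe sets. The 32321 probe sets span 2.20 to 14.3, no further normalisation was applied, and all 6 arrays entered. Genes were named through the platform annotation: 19158 probe sets have 1 symbol, 1388 several, and 11775 are unnamed here. For 637 genes with several probe sets the brightest was kept.

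The test was limma's moderated linear model (version 3.58.1, R 4.3.3, two-sided), with p-values adjusted over 18404 genes by Benjamini-Hochberg. Genes, lists and role classes were chosen with earlier results of these data known. Every listed gene is named. Values on each array are given for those that passed and, per class, for the 2 with the smallest p and the lowest fold change. Of other lists, up to 4 called genes, or the one with the smallest p, are named. The fit was tested on simulated data. Proteins were not analysed here. Array number limits the precision.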

Additional observations from a re-analysis of the deposited data

How the results depend on the processing

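Under every alternative 34 to 39 of the 42 ER genes were above 0, and 0 were lower even at an unadjusted p under 0.05 in limma. The number called was 8 as reported, 12 among brighter genes only and 13 with an intensity trend. It was 25 with array weights and 16 at an adjusted p under 0.1. Over all deposited probe sets it was 0, where more features enter both the fit and the adjustment. Leaving out single arrays gave 0 to 9 calls. Over all genes 665 were called as reported, 3511 with array weights and 1207 at an adjusted p under 0.1. Without single arrays it was 152 to 759 genes. The absence of knockdown replicate 1, 2 or 3 gave 181, 152 or 175, and that of scrambled replicate 2 gave 188. In the fit over all deposited probe sets 165 probe sets were called, which is not a count of genes. In the other pathway lists 29 were called as reported, 79 with array weights, 9 over all deposited probe sets and 8 to 33 without single arrays. Array weights ran from 0.25 for scrambled replicate 3 to 6.12 for scrambled replicate 2. The median log2 fold change of the ER genes, 0.19, was 0.16 with arrays centred on their median and 0.17 to 0.22 without single arrays. Same-numbered arrays of the groups did not deviate together (correlations of −0.0813, −0.00837 and −0.0803, and 0 of 6 arrays correlated best with their own number), so the numbers were not taken as pairs; with the replicate block 367 genes, 17 of the other lists and 2 ER genes, FKBP14 and SEC24D, passed. Only ER genes that did not pass as reported changed sign. A repeated quantile normalisation put DNAJC10 at 0.011, centring put TXNDC11 at −0.016, and array weights put DNAJC10 at 0.11, ATF6 at 0.020, HYOU1 at 0.027 and CANX at −0.0035. Leaving out single arrays gave log2 fold changes of −0.059 to 0.057 for DNAJC10, −0.029 to 0.046 for TXNDC11, −0.11 to 0.087 for HYOU1, −0.015 to 0.061 for CANX, −0.14 to 0.026 for DNAJB11, −0.064 to 0.25 for SDF2L1, −0.044 to 0.15 for ERO1A, −0.017 to 0.12 for FKBP11, −0.0056 to 0.075 for EDEM3, −0.034 to 0.12 for SEC61B and −0.0082 to 0.0996 for SSR4. The cause of these differences was not tested.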
